A study of Homo sapiens with 36 samples.

Results

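The replication-dependent histone genes are the clustered genes that supply most histone protein while DNA is copied. Members were chosen by gene symbol alone: the linker histone genes H1-1 to H1-5 and every gene named H2AC, H2BC, H3C or H4C followed by a number. The rule found 65 of the 54583 genes in each count table, namely 5 H1, 16 H2A, 17 H2B, 13 H3 and 14 H4 genes. In the RefSeq annotation of GRCh38.p14, 54 of them lie on chromosome 6 between 25726063 and 27893891, and the other 11 on chromosome 1 between 149782689 and 149887965.

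Core histones H2A, H2B, H3 and H4 form the protein spool that DNA wraps around, and H1 linkers bind the DNA between spools. Most messages of these genes end in a stem-loop that the protein SLBP binds, and they carry no poly(A) tail, so they are made and lost with the phase of DNA synthesis. Some members also make messages with a poly(A) tail, among them H1-2, H2AC6, H2BC4, H2BC5, H2BC12 and H2BC21, called the polyA list below. Libraries made by poly(A) selection, as here, catch mainly such tailed forms, and what escapes of the tailless forms depends on the selection.

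The study measured polyA RNA from MDA-MB-231, an established human cell line from a triple-negative breast tumour. Its cells were given SHP1705, which stabilizes the clock repressor cryptochrome, a proteasome inhibitor, or both. There were 36 libraries in 3 sets of 12, each set with 4 groups of 3 libraries. In the MG132 set the cells received DMSO alone, SHP1705 at 10 µM, MG132 at 100 nM, or SHP1705 at 10 µM with MG132 at 100 nM, each for 8 h. The carfilzomib sets, at 8 h and at 24 h, had DMSO alone, SHP1705 at 10 µM, carfilzomib at 10 nM, or both at these doses. The pair of drugs is called the combination below. The design text speaks of 3 independent experiments but nothing ties them to the replicate numbers, so a p-value here reflects how far these libraries differ, which can be technical. In whole-culture RNA, fewer cells in S phase and less histone message per cell cannot be told apart.

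Each library of the MG132 set held 34191153 to 39251609 counts, against 17781035 to 27670810 at 8 h and 18864725 to 34008423 at 24 h with carfilzomib. Markers of the line were present in every set, with VIM at 691 CPM or more, where CPM is a gene's count relative to the scaled library total, while ESR1 stayed at or below 0.444 CPM and PGR at or below 0.268 CPM. In the carfilzomib set at 8 h, several labels went against the clock gene PER3 and the stress-induced HSPA1A. In the MG132 set and in the carfilzomib set at 24 h, PER3 was lower in all 12 libraries with SHP1705 than in all 12 without it. At 8 h with carfilzomib, PER3 was 8.19, 2.06 and 1.55 CPM in the libraries labelled DMSO, and 2.25, 9.62 and 7.91 CPM in those labelled SHP1705. HSPA1A there was 14559 to 23605 CPM in the libraries labelled DMSO, 693 to 19856 CPM in those labelled SHP1705, 726 to 896 CPM in those labelled carfilzomib and 892 to 15052 CPM in those labelled combination. Every value of that set is therefore given by library label, and what a treatment did cannot be read from it. In the MG132 set, POSTN, a stroma marker, stood at 28.2 to 242 CPM in 7 libraries and at 0.267 CPM or less in the other 5. Those 7 were SHP1705 replicates 2 and 3, MG132 replicates 1 and 3 and all 3 of the combination.

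Promoter windows from RefSeq (GRCh38.p14) were matched to 60 of the 65 members, and the 250 bases before the start were searched on both strands. The motifs were the octamer ATTTGCAT, which the factor POU2F1 reads, CCAAT, the TATA box TATAAA, the H1 box AAACACA, the clock's E-box CACGTG and the heat shock element. No motif here contains another, though matches may overlap. The windows below belong to 4 of the members called in a comparison with DMSO: an H2A gene, 2 H2B genes and, for its H1 box, a linker gene. Capitals mark every match, on either strand.
H2AC6, chr6:26123922-26124171, plus strand: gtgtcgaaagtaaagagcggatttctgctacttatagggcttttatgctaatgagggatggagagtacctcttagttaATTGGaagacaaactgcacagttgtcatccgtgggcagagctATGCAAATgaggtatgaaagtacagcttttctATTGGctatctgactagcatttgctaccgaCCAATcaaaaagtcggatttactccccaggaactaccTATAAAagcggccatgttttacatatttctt
H2BC5, chr6:26157871-26158120, plus strand: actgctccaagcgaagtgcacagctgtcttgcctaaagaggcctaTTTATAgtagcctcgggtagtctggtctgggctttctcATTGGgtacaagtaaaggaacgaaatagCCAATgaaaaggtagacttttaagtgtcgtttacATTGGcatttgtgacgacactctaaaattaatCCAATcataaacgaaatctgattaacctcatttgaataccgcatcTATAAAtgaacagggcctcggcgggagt
H2BC12, chr6:27146859-27147108, minus strand: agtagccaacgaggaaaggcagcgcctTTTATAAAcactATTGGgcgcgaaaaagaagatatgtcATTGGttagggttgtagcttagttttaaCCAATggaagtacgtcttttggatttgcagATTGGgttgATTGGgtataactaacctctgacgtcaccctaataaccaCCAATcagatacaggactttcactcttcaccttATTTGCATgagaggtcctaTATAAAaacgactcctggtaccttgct
H1-4, chr6:26156079-26156328, plus strand: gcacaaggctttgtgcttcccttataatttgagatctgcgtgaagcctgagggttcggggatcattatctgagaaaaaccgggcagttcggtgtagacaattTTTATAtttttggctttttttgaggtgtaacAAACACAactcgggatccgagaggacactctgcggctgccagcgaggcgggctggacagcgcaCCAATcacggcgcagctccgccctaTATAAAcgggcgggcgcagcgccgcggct
The window of H2AC6 overlaps almost wholly with that of H2BC4 (chr6:26123927-26124176), which is read from the other strand: the starts of this pair are 246 bases apart. The window of H2AC6 holds 1 octamer, 130 bases before the start of H2AC6, 3 CCAAT boxes and 1 TATA box. The H2BC5 window holds 4 CCAAT boxes and 2 TATA boxes and no octamer with these exact letters. The octamer of H2BC12 lies 46 bases before its start, next to a TATA box at 27 bases. The linker gene H1-4 has its H1 box at 117 bases, with a CCAAT box at 54.

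Octamer matches were found in 14 of 17 H2B windows and 11 of 15 H2A windows, in 1 of 11 H3 windows and in none of the 5 H1 and 12 H4 windows, against 1.66% of all 27305 promoter windows. The windows are not all separate DNA. Many H2A and H2B genes form pairs on opposite strands, with starts 194 to 248 bases apart, so 1 match of any motif can count for both. The H3 window with an octamer is that of H3C4, whose start (chromosome 6, 26199293) is also that of H2AC7. CCAAT matches occurred in all windows of H1, H2A, H2B and H3 genes but in 3 of 12 H4 windows, against 33.0% of all windows. The TATA box was present in 41 of the 60 windows (68.3%) and in 11.1% of all, and the H1 box in all 5 H1 windows and no other member's, against 4.95% of all. No E-box and no heat shock element was found in the 60 windows, against 6.49% and 0.439% of all. A match is a description of the letters, and the absence of one says only that these letters are not in this window.

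**Figure D1:**
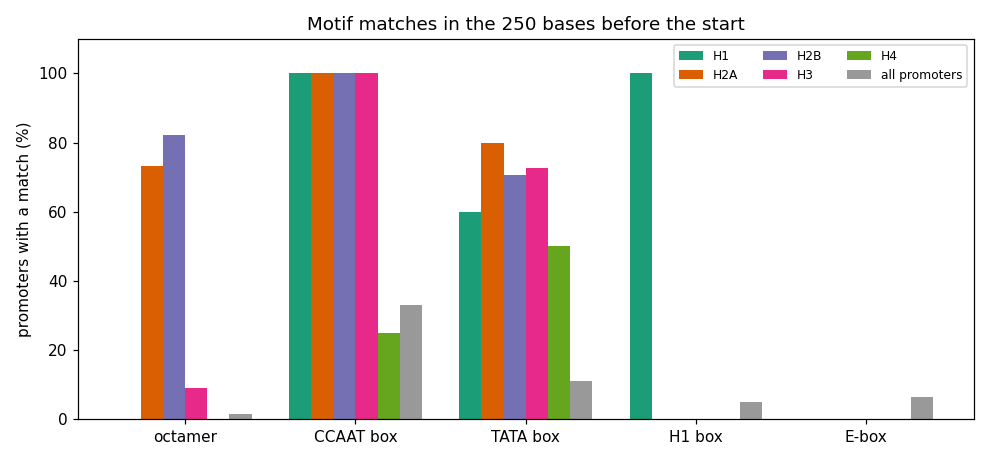
Share of promoter windows (percent, vertical axis) that hold at least 1 match to each motif, for the 5 histone classes and for all promoter windows (grey). Octamer matches are frequent in H2A (73.3%) and H2B (82.4%) windows, while H1 box matches appear in H1 windows (100%) and not in the other classes. Windows of paired H2A and H2B genes overlap, so a match can count in both classes.

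The 3' stem-loop was looked for in the transcripts of GENCODE 29, which hold 61 of the members. It is shown because the place where a message ends relative to it separates the tailless from the longer, tailed form. In 21 members an annotated transcript contained a loop of 16 bases in 4 versions, with the first and last 6 bases forming the stem. The search used a fixed pattern, with C or T and A or G allowed at set positions, so other versions would be missed. Many other members have only a short annotated transcript, such as 381 bases for H2BC12 and 312 for H4C12, which may stop before a loop. A member without a match is therefore not shown to lack one.
Stem-loop of 13 members: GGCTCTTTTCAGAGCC
Stem-loop of H4C11, H4C2, H4C5 and H4C8: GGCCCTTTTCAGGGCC
Stem-loop of H4C14, H4C15 and H4C9: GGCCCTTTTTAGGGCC
Stem-loop of H2AC11: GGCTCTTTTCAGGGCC
The first version occurred in H2AC6 and H2BC21 of the polyA list and otherwise in H2A, H2B and H3 genes, H3C10 and H3C14 among them. In 16 of these 21 members the longest stretch past the loop in any annotated transcript was more than 100 bases. It was 1729 bases in H2BC21. In H2AC6 it was 1128 bases, in a transcript annotated as nonsense-mediated decay, and 1114 in a protein-coding one. Some of these members also had a transcript that ended near the loop, such as H2BC6 at 1 base and H4C8 at 18 bases. For H4C11 the annotated transcript ended 6 bases after the loop.

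Of the 65 members, 33 had enough counts to be tested in the MG132 set, 36 in the carfilzomib set at 8 h and 37 at 24 h, and 31 in all 3 sets. In none of the sets were 25 members tested, and an untested member reached at most 17, 45 and 14 counts in any library of the 3 sets, in the same order. The tested members passed a filter on their own counts, so they are not a sample of all 65. Member genes held 0.0113% to 0.019% of the counts of a library in the MG132 set, 0.00981% to 0.0238% and 0.0168% to 0.0206% in the carfilzomib sets at 8 h and 24 h. The 6 genes of the polyA list supplied 65.2% to 73.2% of the member counts in the MG132 set. With carfilzomib their share was 35.6% to 56.4% in the 8 h libraries and 56.0% to 66.3% in the 24 h libraries. In the MG132 set H2BC12, an H2B gene on chromosome 6 (27138293 to 27146858), supplied the most. Some rows are uncertain. The pairs H2AC18 and H2AC19, H3C14 and H3C15, and H4C11 and H4C12 differed by at most 9, 8 and 15 counts in any of the 36 libraries, so each pair is treated as 1 measurement printed under 2 names. The RefSeq span of H4C15 (chromosome 1, 149844488 to 149861240, minus strand) also contains H2AC19 and H3C15, that of H2BC12 contains H4C9, and that of H3C4 contains H2AC7 on the same strand. These rows too are uncertain, since whether the counting used strand is not given in the sources used here.

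After 8 h, neither drug of the MG132 set moved a member past the test on its own. With SHP1705 alone, edgeR's quasi-likelihood test called 0 of 33 members, DESeq2 called 0, and 4 had an unadjusted p under 0.05, against 7.53% of all 16591 genes called by edgeR. Their median log2 difference from DMSO was -0.13, beside -0.0022 over all genes. H2AC6, an H2A gene (chromosome 6, 26124172 to 26124690), was 12.6, 13 and 11.6 CPM in DMSO and 10.5, 11 and 10.5 CPM with SHP1705. These 2 groups did not overlap, but the difference of -0.21 ± 0.09 (log2, SE) did not pass (edgeR adjusted p = 0.172). With MG132 alone, edgeR called 0 of 33 members and 0% of all genes, DESeq2 called 0 members, and 3 members had an unadjusted p under 0.05. H2AC6 was then 11.8, 11.8 and 11.5 CPM, so that its range overlapped that of the DMSO libraries.

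Together, SHP1705 and MG132 lowered the core histone genes H2AC6, H2BC4, H2BC5 and H2BC12 and the linker gene H1-2 after 8 h. H2AC6 fell to 7.48, 7.14 and 5.35 CPM with the combination, a mean of 6.66 ± 1.14 CPM (SD, n = 3) against 12.4 ± 0.711 CPM in DMSO. All 3 libraries lay below every library of the other groups, and the log2 difference from DMSO was -0.90 ± 0.10 (SE, edgeR adjusted p = 1.29e-07). H2BC4, the H2B gene that shares its start region with H2AC6, was 3.82, 4.03 and 3.98 CPM in DMSO and 2.08, 2.65 and 2.56 CPM with the combination. Here too the groups did not overlap, at -0.69 ± 0.15 (edgeR adjusted p = 0.000421).

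H2BC5, an H2B gene (chromosome 6, 26158121 to 26171349), was 11.8, 10.5 and 8.76 CPM in DMSO, 11, 9.55 and 10.2 CPM with SHP1705 and 11.6 CPM in each of the 3 MG132 libraries. With the combination it was 6.36, 7.01 and 6.74 CPM, below all other 9 libraries, a difference from DMSO of -0.63 ± 0.10 (edgeR adjusted p = 2.07e-05). H2BC12 was 76.3, 72.3 and 71.5 CPM in DMSO and 51.6, 59.8 and 52 CPM with the combination. Its combination libraries were the lowest of the 12, at -0.43 ± 0.05 (edgeR adjusted p = 5.96e-07). H1-2, a linker histone gene (chromosome 6, 26055740 to 26056470), moved less: 24.1, 25.5 and 24 CPM in DMSO against 20.9, 18.5 and 19.4 CPM, or -0.32 ± 0.07 (edgeR adjusted p = 0.000467). These 5 calls held under all alternatives that were run.

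In all, edgeR called 7 of 33 members lower and none higher against DMSO, beside 58.8% of all genes called (29.2% higher, 29.7% lower), so a smaller share of the tested members than of all genes passed. Many tested members had few counts and wide errors, such as H2BC18 (0.14 ± 0.42) and H4C8 (-0.14 ± 0.27), which limits how many could pass. DESeq2 called 5 members and 9230 genes in all. The other 2 calls, H2AC19 at -0.27 ± 0.11 (edgeR adjusted p = 0.0466) and H4C15 at -0.44 ± 0.19 (edgeR adjusted p = 0.0469), had overlapping groups and were lost with DESeq2, with size factors in place of TMM, and without any 1 of DMSO replicates 2 and 3 and combination replicates 1 and 3. Adjusted p without those 4 libraries, in that order, was 0.111, 0.217, 0.148 and 0.138 for H2AC19, and 0.142, 0.0942, 0.208 and 0.0563 for H4C15 (edgeR). H2AC18, the near-equal copy of H2AC19, had the same difference of -0.27 and an edgeR adjusted p of 0.0581. The 6 genes of the polyA list had a median of -0.53 with 5 called lower, the other 27 tested members a median of -0.18 with 2 called lower, and all genes a median of -0.0083. H2BC21, the remaining gene of the polyA list, was at 0.18 ± 0.23 (edgeR adjusted p = 0.523). The members with the most counts, H2BC12 with 29341 and H1-2 with 9749 in this set, are on the polyA list. Outside it, H2AC18 (3849) had more counts than H2BC4 (1542) and H2BC21 (757) on the list. Each copy pair stands as 2 of the other 27. The numbers of calls in the 2 parts are thus not like for like.

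Summed over all members, the level was 178, 182 and 178 CPM in DMSO, 169, 161 and 160 CPM with SHP1705, 171, 171 and 168 CPM with MG132, and 133, 148 and 133 CPM with the combination. Only the combination libraries lay below 159 CPM. By class, the mean sum went from 93.5 CPM in DMSO to 69.2 CPM for H2B, from 37.3 to 28 CPM for H2A, from 27.9 to 22.9 CPM for H1 and from 13.6 to 11 CPM for H4, while H3 was 6.92 and 7.08 CPM. The summed level of the stroma markers varied within groups of this set as well as between them. It was 15 to 15.9 CPM in DMSO and 122 to 279 CPM with the combination. With SHP1705 it was 14.9, 45.7 and 50.2 CPM, and with MG132 50.4, 14.9 and 202 CPM. Of the 7 markers 6 were tested and 3 called higher with the combination, beside 58.8% of all genes called in either direction. DCN was at 0.17 CPM or less throughout. The part of the stroma markers in the member levels was not tested. HSPA1A, at 533 to 926 CPM in the other 9 libraries, was 38927, 40611 and 39707 CPM with the combination, and its part was likewise not tested. Of the RNAs without a poly(A) tail, 4 of 5 were tested and 0 were called against DMSO, while 3 were higher than with MG132 alone, and RN7SK was 85.1 to 195 CPM in DMSO, 45.6 to 82.3 CPM with MG132 and 137 to 284 CPM with the combination.

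**Figure D2:**
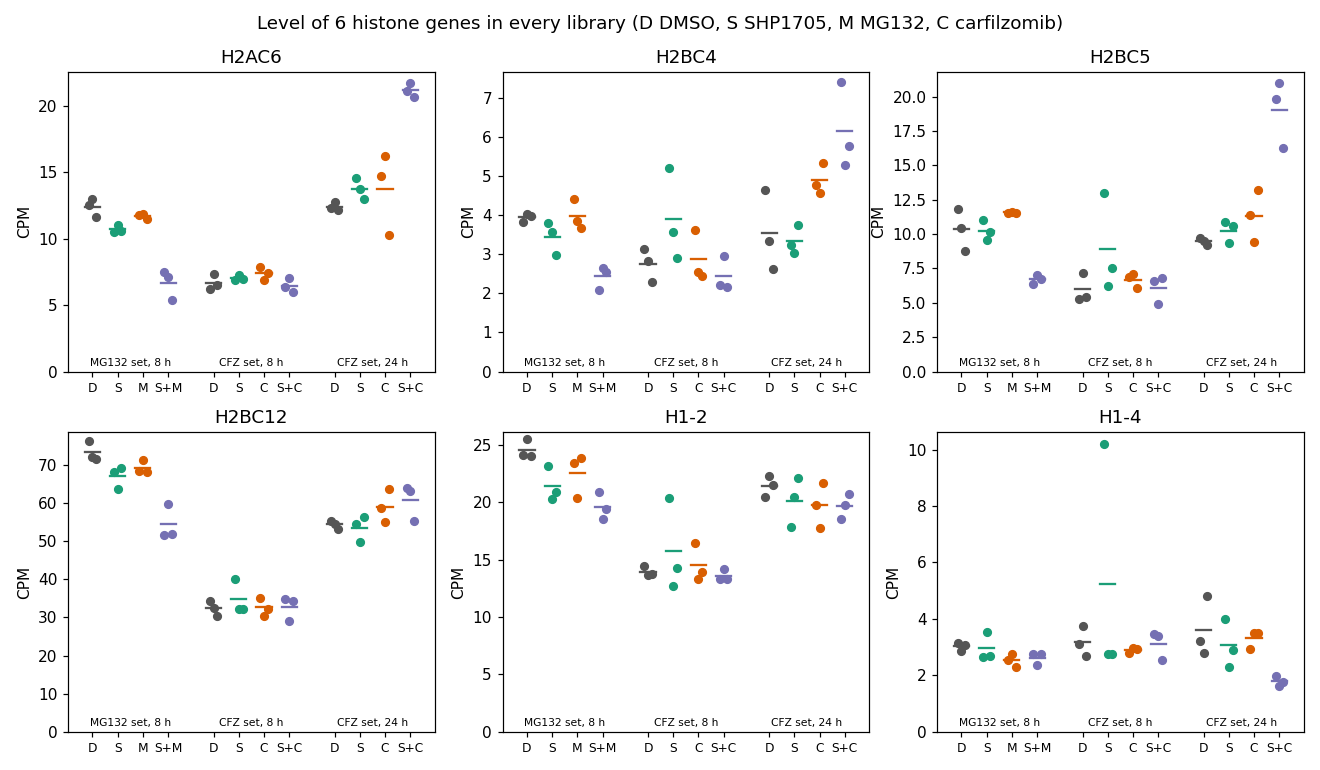
Level in CPM (vertical axis, TMM-scaled) of H2AC6, H2BC4, H2BC5, H2BC12, H1-2 and H1-4 in the 36 libraries, by set and group (D, DMSO; S, SHP1705; M, MG132; C, carfilzomib; S+M and S+C, combinations). Points are libraries and lines are group means; within its own set, H2AC6 is lowest in the MG132 combination (mean 6.66 CPM) and highest in the carfilzomib combination at 24 h (21.2 CPM).

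Against MG132 alone, edgeR called 6 members lower and 1 higher of 33, beside 57.2% of all genes (28.9% lower, 28.2% higher). H2AC6 (-0.82 ± 0.10, edgeR adjusted p = 4.96e-07), H2BC5 (-0.79 ± 0.10, 1.06e-06), H2BC4 (-0.71 ± 0.15, 0.000348) and H2BC12 (-0.35 ± 0.05, 9.27e-06) were lower, with no overlap of their groups. H4C15 was lower by -0.57 ± 0.18 (edgeR adjusted p = 0.012), and the call was lost without MG132 replicate 2 (0.0795) or combination replicate 1 (0.0686). The H1-2 groups overlapped, and its call (-0.20 ± 0.07, edgeR adjusted p = 0.0179) was lost without MG132 replicate 1 (0.0616), MG132 replicate 3 (0.0748) or combination replicate 2 (0.0756). The 1 member higher was H1-5, a linker gene with only 0, 10 and 9 counts in MG132 and 15, 12 and 26 with the combination (1.77 ± 0.72, edgeR adjusted p = 0.0419), and its call was lost without MG132 replicate 1 (0.146), combination replicate 1 (0.065) or combination replicate 3 (0.156), and with the replicate number as a block (0.0515). Without the 4 libraries outside the combination that held POSTN, H1-2 was at -0.06 (edgeR adjusted p = 0.62) and H1-5 at 1.06 (0.272).

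The interaction asks whether the combination departed from the sum of the 2 single-drug differences on the log2 scale. It was called for 5 of 33 members, 4 below and 1 above the sum, beside 48.9% of all genes (24.2% below, 24.7% above), and DESeq2 called 3. H2BC5 (-0.77 ± 0.14, edgeR adjusted p = 9.33e-05), H2AC6 (-0.61 ± 0.13, 0.000767) and H2BC12 (-0.22 ± 0.07, 0.0168) fell below that sum. For H2BC4 (-0.51 ± 0.20, edgeR adjusted p = 0.0416) the call was lost without DMSO replicate 1, 2 or 3 (0.0751, 0.055 and 0.0558), SHP1705 replicate 1 or 2 (0.0989 and 0.0711), MG132 replicate 1 (0.104) or combination replicate 1 (0.101), and with the replicate block (0.0534). For H2BC11 (0.81 ± 0.30, edgeR adjusted p = 0.0308), which lay below DMSO with each drug alone without passing the test, it was lost without DMSO replicate 3 (0.086), SHP1705 replicate 3 (0.0863), MG132 replicate 1 (0.054), combination replicate 2 (0.0815) or combination replicate 3 (0.0522). Without the 4 POSTN libraries outside the combination, H2BC4 was at -0.61 (edgeR adjusted p = 0.106) and H2BC11 at 0.50 (0.377).

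In the carfilzomib set at 8 h, where labels and PER3 disagree, no member passed any of the 5 comparisons after the filter on low counts. In carfilzomib against DMSO, edgeR called 0 of 36 members and 23% of all genes, DESeq2 0 members, and 0 members had an unadjusted p under 0.05. In SHP1705 against DMSO, edgeR and DESeq2 called 0 of 36 and edgeR 0% of all genes, yet 12 members had an unadjusted p under 0.05, and all 36 had a positive difference (median 0.75, beside 0.02 over all genes). The combination against DMSO and against carfilzomib gave 0 calls by edgeR and DESeq2, 0 at an unadjusted p under 0.05 and 0% of all genes. The interaction gave 0 by both tools, with 1 member at an unadjusted p under 0.05 and 0% of all genes. With no filter on low counts, 12 members were called for SHP1705 and 8 for the interaction, H2BC21 among them (edgeR adjusted p = 0.00112 and 0.00818). The share of all genes called was not taken for that fit, so these numbers are not read as a result about the members. H2BC21 was 9.98, 2.88 and 2.56 CPM in the libraries labelled SHP1705.

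The first library labelled SHP1705 stood apart from the other 11. The members summed to 268, 120 and 125 CPM in the libraries labelled SHP1705 and to 109 to 135 CPM in the other 9. In the first of these, H2BC21, an H2B gene of the polyA list, was 9.98 CPM against 1.26 to 2.88 CPM elsewhere, H2BC18 was 11.4 CPM against 0.589 to 1.54 CPM, and H4C8 was 8.48 CPM against 0.538 to 1.83 CPM. By contrast H2AC6 was 6.87 CPM there, within the 5.99 to 7.87 CPM of the others. The 59 members outside the polyA list summed to 173 CPM in that library and to 49 to 64.6 CPM in the rest, and the polyA list to 95.4 CPM against 60.1 to 72 CPM. RN7SK and RMRP, nuclear RNAs with no poly(A) tail, were 90.8 and 29.9 CPM in the same library. The library labelled DMSO replicate 2 came next, with 20.8 and 7.82 CPM, and in the other 10 they were at most 3.26 and 1.53 CPM. How RN7SK and RMRP entered the selected libraries was not tested, nor was any link to the member levels.

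**Figure D3:**
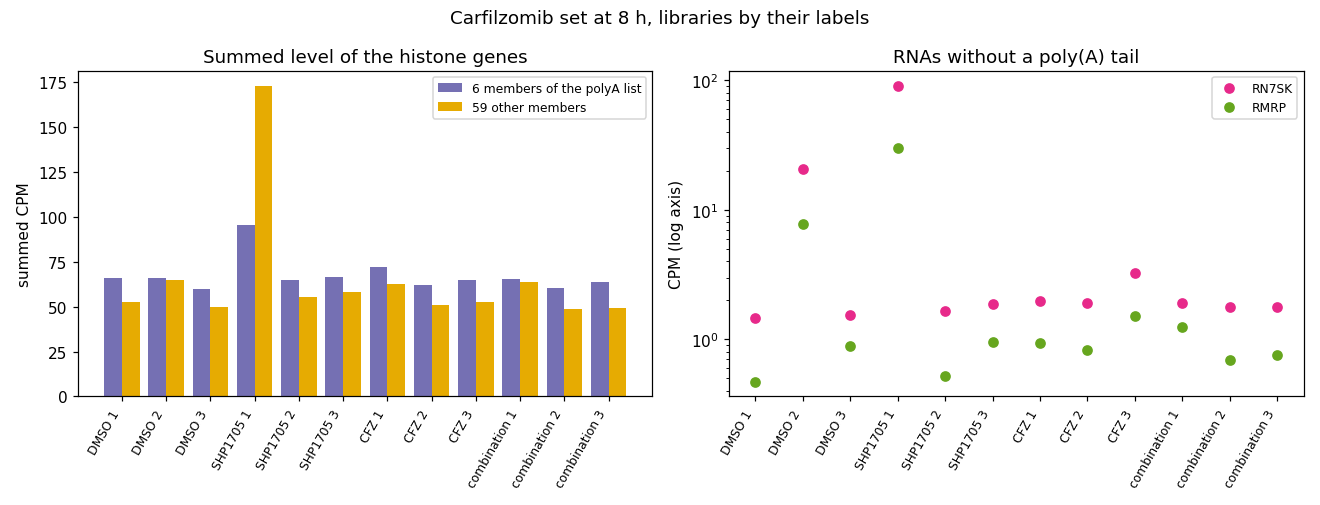
Left, summed level (CPM) of the 6 polyA list genes and of the 59 other members in each of the 12 libraries of the carfilzomib set at 8 h, as bars from 0. Right, levels of RN7SK and RMRP in the same libraries (CPM, log axis); the first library labelled SHP1705 stands apart in both panels, at 173 CPM for the 59 members and 90.8 CPM for RN7SK.

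After 24 h with SHP1705 alone, edgeR and DESeq2 called 0 of 37 members, 2 had an unadjusted p under 0.05, and 4.46% of all genes were called by edgeR. Carfilzomib alone lowered 3 members of 37 by edgeR, beside 21.5% of all genes (11.4% lower), and DESeq2 called 0. H3C10, an H3 gene (chromosome 6, 27810051 to 27810536), was 1.55, 1.58 and 1.28 CPM in DMSO and 0.619, 0.767 and 0.924 CPM with carfilzomib. The groups did not overlap, yet the call (-0.93 ± 0.33, edgeR adjusted p = 0.0482) was lost when any 1 of the 6 libraries was left out (0.0533 to 0.136). H2AC18 (-0.31 ± 0.11, edgeR adjusted p = 0.04) and its copy H2AC19 (-0.30 ± 0.11, 0.0472) are 1 measurement, at 15.3, 14.9 and 14.5 CPM in DMSO and 12.6, 12.9 and 10.6 CPM with carfilzomib for H2AC18. Their calls were lost without carfilzomib replicate 3 (0.165 and 0.19) and without DMSO replicate 1 (0.119 and 0.148), 2 (0.0908 and 0.106) or 3 (0.0644 and 0.0619), and that of H2AC19 also without carfilzomib replicate 1 (0.0531). Some members passed only with 1 library left out: H2AC6 without carfilzomib replicate 3 (0.32, edgeR adjusted p = 0.026), H2BC5 without carfilzomib replicate 2 (0.38, 0.0373) and H2BC4 without DMSO replicate 1 (0.70, 0.0267).

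The combination with carfilzomib raised H2AC6, H2BC4 and H2BC5 after 24 h and lowered the linker gene H1-4. H2AC6 was 12.3, 12.7 and 12.2 CPM in DMSO, 14.5, 13.7 and 13 CPM with SHP1705, 14.7, 16.2 and 10.3 CPM with carfilzomib and 21.1, 21.7 and 20.7 CPM with both. All 3 combination libraries lay above the other 9, and the difference from DMSO was 0.77 ± 0.12 (edgeR adjusted p = 3.43e-05). H2BC5 was 9.75, 9.53 and 9.19 CPM in DMSO and 19.9, 21 and 16.3 CPM with the combination, above every other library and by 1.00 ± 0.12 (edgeR adjusted p = 1.8e-06). H2BC4 was 4.65, 3.33 and 2.62 CPM in DMSO and 7.39, 5.27 and 5.77 CPM, with no overlap and a difference of 0.79 ± 0.19 (edgeR adjusted p = 0.00357).

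H1-4 (chromosome 6, 26156329 to 26157115) went the other way. It was 3.24, 2.79 and 4.81 CPM in DMSO and 1.97, 1.62 and 1.77 CPM with the combination. The groups did not overlap, at -0.999 ± 0.25 (edgeR adjusted p = 0.00375). H2BC12 (54.4 ± 1.04 CPM in DMSO, 60.8 ± 4.9 CPM in the combination, SD, n = 3) did not pass (0.16 ± 0.07, edgeR adjusted p = 0.0955). It did pass with only the groups compared (0.16, edgeR adjusted p = 0.03) and without combination replicate 3 (0.22, edgeR adjusted p = 0.0313). H1-2 did not pass (-0.12 ± 0.09, edgeR adjusted p = 0.379).

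These were the 4 of 37 members called against DMSO, by edgeR and in number also by DESeq2, beside 27.3% of all genes (13% higher, 14.3% lower), and the 4 calls held under all alternatives run. The polyA list had a median of 0.52 with 3 of 6 called higher, the other 31 tested members a median of -0.28 with 1 called lower, and all genes a median of 0.0036. Here too the members with the most counts (H2BC12 16937, H1-2 5979) are on the list, while H2AC18 (4018) outside it had more than H2BC5 (3737). Each copy pair stands as 2 of the other 31. The polyA list summed to 104, 105 and 100 CPM in DMSO and 133, 133 and 121 CPM with the combination, and the 59 other members to 81.4, 78 and 73.9 CPM and to 71.4, 67.5 and 63.2 CPM. Neither pair of groups overlapped, and the sums moved in opposite directions. With SHP1705 and with carfilzomib alone the 59 other members summed to 76.6, 70.4 and 70.2 CPM and to 76.9, 71.3 and 65.4 CPM. Both of these groups overlapped the combination. The polyA list summed to 103, 97.8 and 107 CPM and to 111, 104 and 116 CPM, below the combination. No test was made of these sums. Here the stroma markers summed to 11.8 to 16.9 CPM in every library, with POSTN at 0 in 11 of 12 and DCN at 0 in all. RN7SK was 7.59 to 10.4 CPM in DMSO and 7.27 to 20.1 CPM with the combination.

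Against carfilzomib alone, 3 of 37 members were called, beside 9.02% of all genes (4.36% higher, 4.67% lower), and DESeq2 called 3. H2BC5 (0.75 ± 0.12, edgeR adjusted p = 0.000296) and H2AC6 (0.62 ± 0.12, 0.00152) were higher, and H2BC4 did not pass (0.33 ± 0.19, 0.297). H1-4 was lower (-0.89 ± 0.24, edgeR adjusted p = 0.0229), a call lost without carfilzomib replicate 2 (0.0505) or 3 (0.0588) or combination replicate 2 (0.0884) or 3 (0.0741). The interaction was called for 0 of 37 members by edgeR and 0 by DESeq2, with 2 at an unadjusted p under 0.05, beside 0.482% of all genes. For H2BC5 it was 0.64 ± 0.18 (edgeR adjusted p = 0.103), and it passed without carfilzomib replicate 3 (0.77, 0.0446) and with no filter on low counts (0.64, 0.0232). For H2AC6 it was 0.47 ± 0.17 (edgeR adjusted p = 0.204), and it passed without carfilzomib replicate 2 (0.62, 0.0417).

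**Figure D4:**
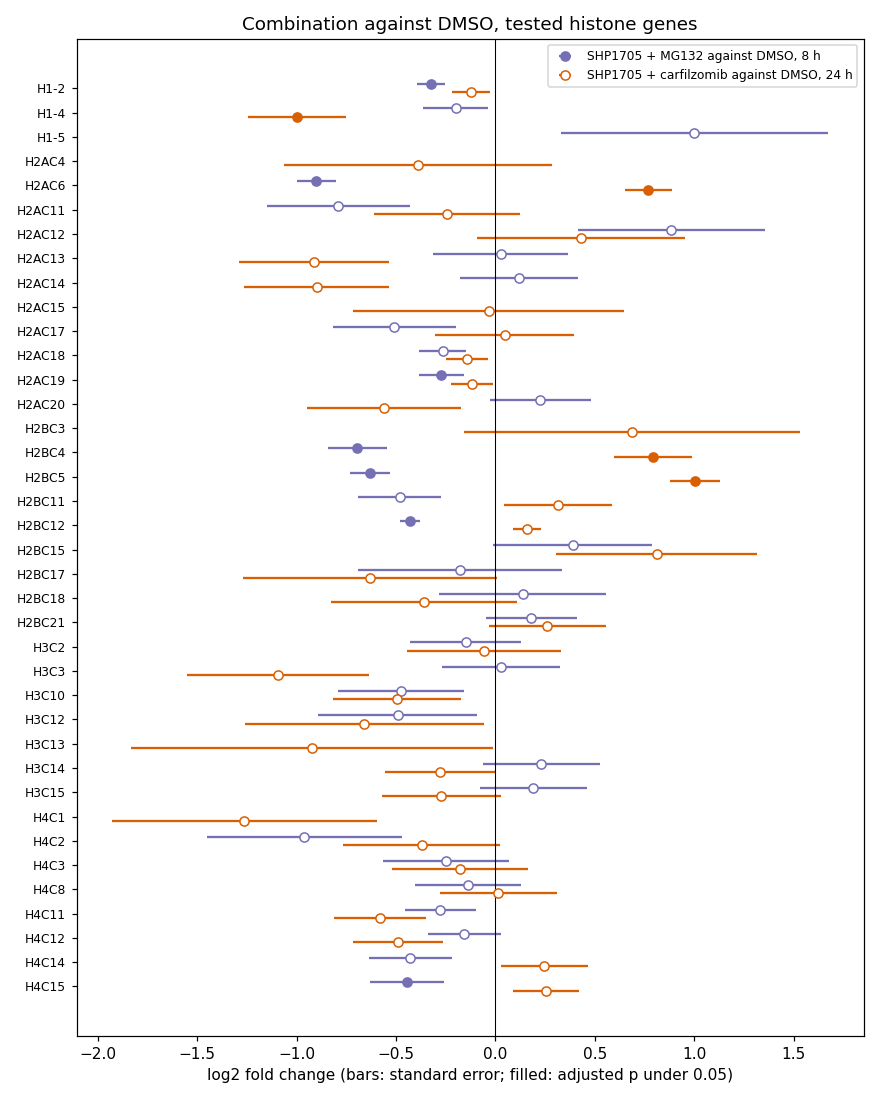
Log2 difference from DMSO with its standard error (horizontal axis) for each tested member, after SHP1705 with MG132 for 8 h (purple) and SHP1705 with carfilzomib for 24 h (orange); filled points have an adjusted p under 0.05. H2AC6 lies at -0.90 in the first and 0.77 in the second, H2BC5 at -0.63 and 1.00, and H2BC4 at -0.69 and 0.79.

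H2AC6, H2BC4 and H2BC5 were lower with the MG132 combination and higher with the carfilzomib combination. The 2 experiments differ in inhibitor, dose, time and control libraries, so no test of this difference was made and inhibitor and time cannot be told apart. Between the carfilzomib sets, 24 h minus 8 h, the combination's difference from DMSO was higher by 0.82 ± 0.18 for H2AC6 (edgeR adjusted p = 0.00769) and 0.98 ± 0.29 for H2BC5 (0.0332), beside 11.6% of all genes called (4.96% higher), and 2 of 39 members passed. For H2BC4 it was 0.96 ± 0.33 (edgeR adjusted p = 0.0615), and it passed with DESeq2 (0.96, DESeq2 adjusted p = 0.0409). With edgeR it passed without the 8 h library labelled combination replicate 2 (0.0415) or 24 h DMSO replicate 1 (0.0365). The H2BC5 call was lost without any 1 of 8 libraries: at 8 h those labelled DMSO replicates 2 (0.115) and 3 (0.0564) and combination replicate 2 (0.0635), and at 24 h DMSO replicates 1 (0.0621), 2 (0.063) and 3 (0.0669) and combination replicates 1 (0.0677) and 2 (0.0778). These differences rest on the labels of the 8 h set. For SHP1705 alone, edgeR and DESeq2 called 0 of 39, 8 had an unadjusted p under 0.05, and 0.196% of all genes were called.

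Other genes of the histone pathway were read from lists of symbols, against a background of 58.8% of all genes called with the MG132 combination (29.2% higher, 29.7% lower) and 27.3% with the carfilzomib combination at 24 h (13% higher, 14.3% lower). Replication-independent histones are genes whose making is not confined to S phase. Among them, 9 of 12 tested were lower and 1 higher with the MG132 combination. With the carfilzomib combination at 24 h, 9 of 11 were lower and none higher. H2AX, the variant phosphorylated at DNA breaks, was lower in both (-1.08 ± 0.04, edgeR adjusted p = 4.7e-15, and -0.95 ± 0.06, 8.5e-11). Of 30 S phase genes, 24 were lower and 1 higher with the MG132 combination (median -0.40), and 22 lower and none higher with the carfilzomib combination (median -0.35). UHRF1, which keeps DNA methylation through replication, was at -1.51 ± 0.04 in the first (edgeR adjusted p = 1.37e-16), and E2F1, an activator of S phase genes, at -0.61 ± 0.06 in the second (edgeR adjusted p = 2.3e-08).

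Of 20 genes of histone transcription and 3' end processing, 11 were higher and 4 lower with the MG132 combination, and 5 higher and 2 lower with the carfilzomib combination, beside the 58.8% and 27.3% of all genes called. SLBP, the stem-loop binding protein, was 121, 124 and 124 CPM in DMSO and 169, 165 and 156 CPM with the MG132 combination, with no overlap (0.41 ± 0.04, edgeR adjusted p = 1.16e-08). At 24 h it was 119, 115 and 122 CPM in DMSO and 91.5, 82.1 and 84.4 CPM with the carfilzomib combination, also with no overlap but lower (-0.46 ± 0.06, edgeR adjusted p = 1.73e-06). NPAT, the coactivator of these promoters, did not pass against DMSO in either (0.09 ± 0.05, edgeR adjusted p = 0.142, and -0.06, 0.685). LSM10, part of the particle that cleaves histone messages, was lower with the MG132 combination (-1.21 ± 0.08, edgeR adjusted p = 9.36e-11), and ZNF473, of the same machinery, higher (1.03 ± 0.05, 2.63e-12). Of 20 histone chaperones, which carry histones to DNA, 11 were lower and 6 higher with the MG132 combination, and 10 lower and 1 higher with the carfilzomib combination, beside 29.7% and 14.3% of all genes called lower. ASF1B, which hands over new H3 and H4, was lower in both (-0.90 ± 0.04, edgeR adjusted p = 8.91e-13, and -0.61 ± 0.06, 5.07e-08).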

How the data were processed

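The deposited tables hold raw counts of reads per gene, 1 table per set. Per the submitters' processing notes, the authors used Trimmomatic, FastQC, HISAT2 and featureCounts with hg38; the sources used here give no versions, annotation, strand or treatment of reads with several matches. All 36 columns matched a sample by its labels. Each set was fitted whole in edgeR 4.0.16 (R 4.3.3, limma 3.58.1): filterByExpr, TMM factors, the quasi-likelihood test and Benjamini-Hochberg adjustment over all tested genes, with a threshold of 0.05 and a prior count of 0.125. The 24 h minus 8 h contrasts used both carfilzomib tables in 1 fit. CPM values are scaled by TMM. Alternatives were DESeq2 1.42.0, its size factors in edgeR (RLE), no filter on low counts, a replicate block, only the groups compared, each library left out, and unscaled CPM for sums. Leaving out 4 libraries with POSTN counts and using 1 row per copy pair were added after seeing the data. The method was tested on simulated data. Members and lists were chosen with earlier results of these data known. Named members were those called in any contrast, the member of each class with the highest mean CPM, and the polyA list. Other named genes were up to 3 per list and contrast by adjusted p, SLBP, NPAT and the check genes, with 1 gene not reported here; H2BC18, H4C8, RN7SK and RMRP were chosen after their values were seen. Python 3.11.15 with matplotlib 3.10.9 made the plots.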

Additional observations from a re-analysis of the deposited data

Results flagged for a closer look

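The combination's difference from DMSO was unlike at 8 h and at 24 h of carfilzomib for 2 members, by a test of the difference itself. For H2AC6, 24 h minus 8 h was 0.82 on the log2 scale (edgeR adjusted p = 0.00769). For H2BC5 it was 0.98 (edgeR adjusted p = 0.0332), a call lost without any 1 of 8 libraries and with the replicate block (0.0608). Both rest on the 8 h labels that PER3 and HSPA1A go against.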

How the results depend on the processing

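No called result reversed its direction. Directions were followed for called members and the polyA list, and a change of sign without a call was not counted. Called members of the MG132 interaction went from 5 to 3 with no filter on low counts, with DESeq2 and without the 4 POSTN libraries, and ranged from 3 to 6 with 1 library left out. Without the filter, calls went from 0 to 12 for SHP1705 and to 8 for the interaction in the carfilzomib set at 8 h, to 1 for the interaction at 24 h and to 6 for SHP1705, 24 h minus 8 h. For these fits the share of all genes called was not taken. The 3 calls of carfilzomib alone at 24 h became 0 with no filter, with DESeq2 and with only the groups compared, and 0 to 3 with 1 library left out. Leaving out 1 library gave 5 to 10 calls for the MG132 combination against DMSO, 5 to 7 against MG132, 4 to 6 for the carfilzomib combination against DMSO at 24 h, 2 to 3 against carfilzomib, 0 to 1 for that interaction and 1 to 2 for the combination, 24 h minus 8 h. The cause was not tested.

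With a replicate block, carfilzomib alone at 24 h had 1 call and the combination, 24 h minus 8 h, 1 call. For pairing, each group's mean log2 CPM was taken off every gene, and what remained was correlated between libraries of different groups. Same-numbered libraries then correlated by -0.0926 to 0.151 in the MG132 set, -0.657 to 0.229 and -0.0473 to 0.0466 in the carfilzomib sets at 8 h and 24 h. Libraries with different numbers correlated by -0.219 to 0.208, -0.399 to 0.567 and -0.0521 to 0.0422, in the same order. The numbers were thus not taken as pairs. With the block the calls of H1-5 against MG132 (edgeR adjusted p = 0.0515), H2BC4 in the MG132 interaction (0.0534), H2AC19 and H3C10 with carfilzomib at 24 h (0.0528 and 0.0626) and H2BC5, 24 h minus 8 h (0.0608), were lost. The block left the other counts of called members within 1.5 times.

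Mean summed levels in the MG132 set with unscaled CPM were 188 in DMSO, 173 with SHP1705, 180 with MG132 and 117 with the combination, and 109 in DMSO of the carfilzomib set at 8 h. With 1 row per copy pair, which sums fewer genes, they were 166, 151, 158 and 127 CPM in the MG132 set, 106, 109 and 104 CPM for DMSO, carfilzomib and combination at 8 h, and 159, 155, 163 and 178 CPM for the 4 groups at 24 h. Members with few counts could not be tested at this depth.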
